A study of Mus musculus with 8 samples.

Results

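The genes described here encode the collagens and laminins of the extracellular matrix and the integrins that bind them, measured by RNA-seq in mouse hippocampus. They were chosen by symbol, Col, Lam or Itg followed by the chain's number and letter, with earlier results of these data known. Of the table's 56575 features, 24338 of which carry a symbol, 85 matched. Col1a1 and Itgb5 each matched in a pair of features, of which the one with the higher mean was kept, leaving 83 genes: 44 collagens, 10 laminins and 29 genes named as integrins. Among the last, Itgb1bp1, Itgb1bp2, Itgb3bp and Itgbl1 carry the name but are not integrin chains. All but Itgb2l (mean value 9.79) reached a mean of 10 and were tested, 82 in all.

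The libraries came from hippocampi of C57BL/6 mice aged 8 weeks, 4 labelled Slm2KO and 4 labelled WT; no treatment is named. The study asked how expression and splicing differ between these genotypes. SLM2 is an RNA-binding splicing regulator encoded by Khdrbs3, and the sources used here do not give which part of the gene was removed or in which cells. Khdrbs3 had normalised read counts of 29676, 33366, 30022 and 25932 in Slm2KO 1 to 4, against 20662, 23542, 19457 and 24544 in WT 1 to 4. It was thus higher in each library labelled Slm2KO than in any labelled WT. The table gives 1 value for the whole gene, which cannot show the loss of a part of it, so every direction below refers to the libraries by their labels. Whether each sample is a separate animal is not in the labels, and the p-values therefore speak of the spread among these samples alone.

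Recovered depth was 104020058 to 125985224 reads per library. All 12 hippocampal neuron markers on the list were detected, with a summed value of 403277 to 531241 in Slm2KO libraries and 440817 to 518568 in WT libraries. Choroid plexus RNA differed much more: Ttr, the transthyretin of choroid plexus epithelium, spanned a 10.3-fold range, from WT 2 as the lowest to Slm2KO 4 as the highest. Reads of Y-linked genes were present in Slm2KO 3, Slm2KO 4 and WT 4. The sample numbers fall into a lower series (replicates 1 and 2 of each label) and a higher series (replicates 3 and 4).

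Collagens are built from chains that wind into a triple helix. Type IV chains form the network of basement membranes, the fibrillar types form cables in connective tissue, and laminins are trimers of an alpha, a beta and a gamma chain that seed basement membranes. Integrins are pairs of an alpha and a beta chain in the cell membrane that hold cells to collagen, laminin and other ligands. In the brain, basement membranes surround the vessels and underlie the pia and the choroid plexus epithelium, and fibrillar collagen is made mainly by fibroblasts of the meninges and vessel walls.

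Itgb1, Col4a2, Itgb5, Col6a1 and Col9a3 were the most abundant of these genes per kilobase. Levels between genes are given as the mean normalised read count over the 8 libraries per kilobase of annotated exon. Among collagens, Col4a2 (1710 per kilobase) and Col4a1 (1071), which together form the common type IV network, stood beside Col6a1 (1210), a chain of the beaded filaments of type VI, and Col9a3 (1090), a chain of type IX, which decorates fibrils. Col8a2 (742) and Col8a1 (667), the chains of the sheet-forming type VIII, came next. Fibrillar chains were lower, at 148 for Col1a1, 142 for Col1a2, 35.7 for Col3a1, 219 for Col5a1 and 180 for Col5a2. Col10a1, a cartilage collagen whose feature overlaps Nt5dc1, was the lowest at 4.74.

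Lamb1 (751 per kilobase) and Lamb2 (713) were the most abundant laminins, followed by the gamma chains Lamc1 (193) and Lamc3 (165). Every alpha chain was lower than these beta chains per kilobase: Lama3 was at 87.2, Lama4 at 78.2, Lama2 at 72.9, Lama1 at 66.4 and Lama5 at 52.5. Among integrins, Itgb1 (2291), the beta chain shared by most collagen and laminin receptors, was the highest of all 83 genes, and Itgb5 (1648), a partner of the alpha V chain, followed. Itgam (661), a chain of the complement receptor of microglia, and Itga7 (592), a laminin-binding chain whose feature overlaps Mettl7b, were the highest alpha chains. Strand is not kept by the library kit, and the reads of genes that overlap cannot be told apart, which also bears, among others, on Col9a3 (overlapped by Tcfl5), Col5a1 (Gm13372), Col12a1 (4930562D21Rik), Col14a1 (1700040F17Rik), Itga8 (E030013I19Rik), Itgb3bp (Pgm2), Itgae (Gsg2) and Itgb1bp1 (Asap2).

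The collagens spread more widely between libraries than the integrins, a difference between the families that was not tested. The median SD of log2 values over the 8 libraries was 0.366 for the 44 collagens, 0.295 for the 10 laminins and 0.197 for the 28 tested integrins, beside 0.179 for all 25667 tested features. The highest library exceeded the lowest by more than 2-fold for 24 of 44 collagens (54.5%), 2 of 10 laminins (20.0%) and 4 of 28 integrins (14.3%), beside 27.4% of all tested features. A range over 4-fold was seen for 8 collagens (18.2%), 0 laminins and Itgb6 alone among integrins (3.57%), beside 8.17% of all. Collagen values were also tied to each other: the median Pearson r over the 8 libraries was 0.33 for the 946 pairs of collagens, 0.49 for the 45 pairs of laminins, 0.47 between collagens and laminins and 0.10 for the 378 pairs of integrins. Over all pairs of tested features it was -0.00. An r over 0.7 was found for 19.8% of collagen pairs, 28.9% of laminin pairs and 10.3% of integrin pairs, beside 5.11% of all pairs; all of these share the same 8 libraries.

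**Figure D1:**
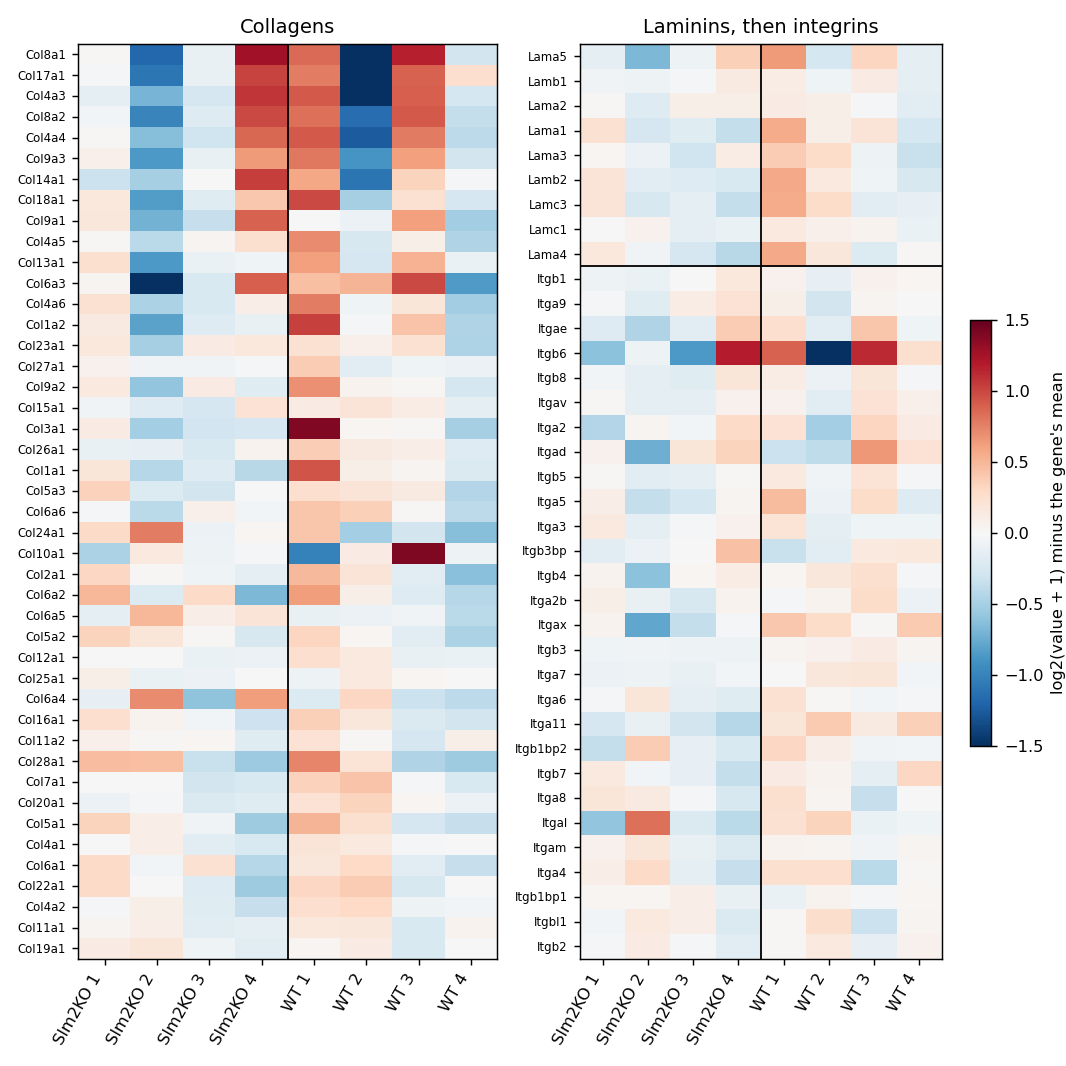
Log2(value + 1) of the tested genes, with 1 gene not shown, in each library minus that gene's mean over the 8 libraries (colour, capped at 1.5), with Slm2KO libraries left of WT libraries. Rows run in each family from the highest to the lowest correlation with the choroid plexus marker list; the top collagens are high in Slm2KO 4, WT 1 and WT 3 and low in Slm2KO 2 and WT 2, and Col1a1, Col1a2 and Col3a1 are highest in WT 1.

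A set of 7 collagens followed the choroid plexus RNA of the libraries. They were Col8a1 and Col8a2, the partner chains of type VIII, Col4a3 and Col4a4, chains of the type IV network of filtering basement membranes, Col9a3, Col14a1, a fibril-associated collagen, and Col17a1, a transmembrane collagen of epithelial anchoring sites. The bases before the starts of Col8a1 and Col8a2 are shown because these chains moved together. The same holds for the bases between Col4a4 and Col4a3, which are read away from each other. Those before Itga11, described further below, are shown because it went the other way within each genotype (r of -0.37 over all libraries as they stand). These stretches are RefSeq sequences of build GRCm38.p6 (the assembly of mm10), 5′ to 3′ on the strand of the gene named first, and cover only bases before every annotated start: 250 bases at chr16:57754738-57754987 (minus), 249 at chr4:126286544-126286792 (plus), 70 at chr1:82586850-82586919 (minus) and 221 at chr9:62677605-62677825 (plus). Capitals mark the GC box letters GGGCGG on either strand.
Col8a1: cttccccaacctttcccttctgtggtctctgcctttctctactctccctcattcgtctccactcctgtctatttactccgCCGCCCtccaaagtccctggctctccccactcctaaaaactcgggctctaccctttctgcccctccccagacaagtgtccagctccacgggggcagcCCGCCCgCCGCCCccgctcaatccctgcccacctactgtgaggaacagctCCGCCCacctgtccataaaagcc
Col8a2: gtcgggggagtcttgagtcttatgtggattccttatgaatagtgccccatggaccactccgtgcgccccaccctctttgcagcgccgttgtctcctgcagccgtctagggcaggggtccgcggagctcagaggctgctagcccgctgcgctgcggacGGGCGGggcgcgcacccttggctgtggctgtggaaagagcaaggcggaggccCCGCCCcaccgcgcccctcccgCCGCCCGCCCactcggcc
Col4a4 and Col4a3: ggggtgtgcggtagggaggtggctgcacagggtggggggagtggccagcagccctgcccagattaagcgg
Itga11: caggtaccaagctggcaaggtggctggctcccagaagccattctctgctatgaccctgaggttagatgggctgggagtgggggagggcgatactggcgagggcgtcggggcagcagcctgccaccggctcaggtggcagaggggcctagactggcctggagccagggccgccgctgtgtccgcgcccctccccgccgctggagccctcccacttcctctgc

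GGGCGG was found 4 times before Col8a1 and 4 times before Col8a2, where 2 of the matches overlap, and 0 times in the other stretches. The CCAAT box (CCAAT), the TATA box (TATAAA) and a motif of the factor OTX2 (TAATCC) were each found 0 times in all 4 stretches on either strand. Of 32851 RefSeq windows of 250 bases, 32.7% hold GGGCGG, 33.8% CCAAT, 12.4% TATAAA and 6.25% TAATCC. Of windows of 70 bases, 20.6%, 13.1%, 4.38% and 1.55% hold them in the same order. The stretches have a GC content of 60.8% (Col8a1), 69.9% (Col8a2), 70.0% (Col4a4 and Col4a3) and 69.2% (Itga11), beside a median of 52.4% for windows of 250 bases. RefSeq windows were found for 59 of the 83 genes.

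The normalised read count of Col8a1 (chromosome 16, 57624256 to 57754737, minus strand) was 4236, 1848, 3875 and 10079 in Slm2KO 1 to 4, against 7569, 1277, 9435 and 3458 in WT 1 to 4. Col8a2 (chromosome 4, 126286794 to 126314330, plus strand) had 2812, 1448, 2527 and 5718 in Slm2KO libraries, against 5105, 1306, 5481 and 2253 in WT libraries. Both chains were lowest in WT 2 and Slm2KO 2 and highest in Slm2KO 4 and WT 3, and the genotypes overlapped over nearly the whole range. Col4a3 (chromosome 1, 82586920 to 82722059, plus strand) had 705, 482, 654 and 1639 in Slm2KO libraries, against 1481, 268, 1453 and 652 in WT libraries. Its neighbour Col4a4 (chromosome 1, 82450723 to 82586849, minus strand) had 698, 443, 564 and 1257 in Slm2KO libraries, against 1309, 292, 1189 and 529 in WT libraries. These type IV chains were lowest in the same 2 libraries as the type VIII chains and highest in the same 3, Slm2KO 4, WT 1 and WT 3, with the genotypes again overlapping. Col9a3 ran from 2121 to 5987 in Slm2KO libraries and from 2093 to 6658 in WT libraries, Col14a1 from 260 to 757 in Slm2KO libraries and from 172 to 549 in WT libraries, and Col17a1 from 121 to 520 in Slm2KO libraries and from 78.6 to 474 in WT libraries. Highest over lowest was 7.89-fold for Col8a1, 6.62-fold for Col17a1, 6.10-fold for Col4a3, 4.48-fold for Col4a4, 4.41-fold for Col14a1, 4.38-fold for Col8a2 and 3.18-fold for Col9a3.

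**Figure D2:**
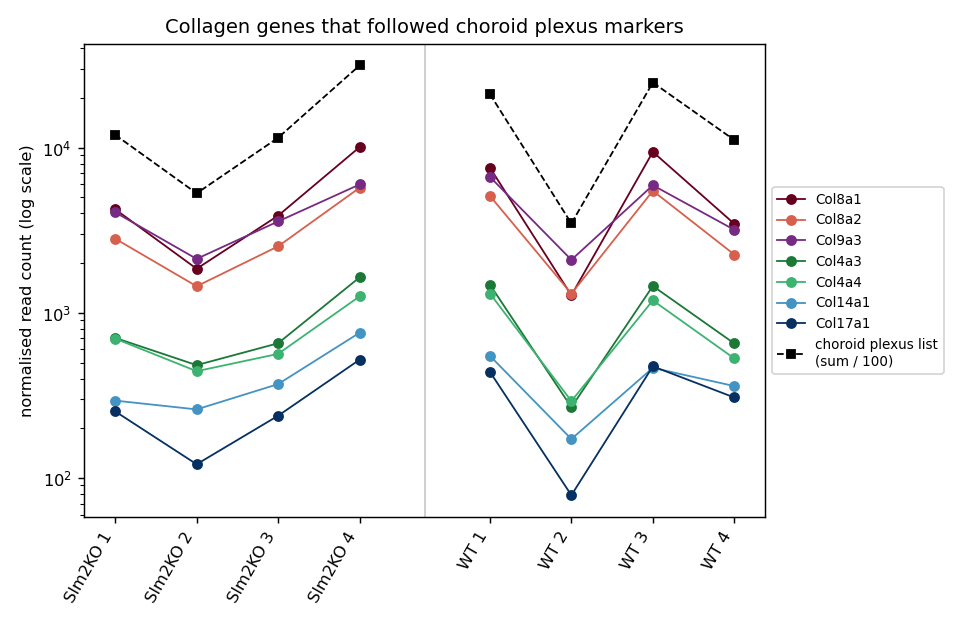
Normalised read count (log scale) of the 7 collagens in each library, Slm2KO libraries left of WT libraries, with the summed value of the choroid plexus marker list divided by 100 as black squares. All 7 lines dip in Slm2KO 2 and WT 2 with the marker list; Col8a1 ranged from 1277 in WT 2 to 10079 in Slm2KO 4.

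The 18 choroid plexus markers hold no collagen, laminin or integrin, and none was at 0. Their summed value was 1196140, 529171, 1148757 and 3147527 in Slm2KO 1 to 4, against 2111466, 347881, 2481025 and 1113051 in WT 1 to 4. Each tested feature was correlated over the 8 libraries with the mean log2 value of this list, with adjustment over all 25667 relations computed; 1.97% of features passed with a positive r and 0.323% with a negative r. Of the members, 7 of 44 collagens passed, all positive, and 0 of 10 laminins and 0 of 28 integrins, where 2 laminins and 10 integrins (7 positive, 3 negative) had an unadjusted p under 0.05 in the exact permutation test, beside 9.51% of all features positive and 9.77% negative. For Col8a1, Pearson r was 0.997 (exact permutation p = 2.48e-05, the smallest that 8 libraries can give, adjusted p = 0.0199) and Spearman rho 1.000 (exact permutation p = 4.96e-05, adjusted p = 0.02). The list was farthest from its median in WT 2 and Slm2KO 4, and without them r was 0.99. The other collagens had r of 0.98 for Col8a2, Col4a3 and Col17a1, 0.97 for Col4a4 and Col9a3 and 0.95 for Col14a1, with adjusted p of 0.0199 to 0.0456 by the exact permutation test and r of 0.90 to 0.99 without those libraries. Spearman rho was 0.90 to 1.000, and by it Col8a1, Col8a2 and Col4a3 alone passed adjustment (adjusted p of 0.02 to 0.04, against 0.07 to 0.09 for the other 4, exact permutation test). In tissue RNA, fewer cells of a type and less RNA per cell cannot be told apart, and whether the choroid plexus in each sample sets these values was not tested. A number series holds 4 libraries, too few for a correlation within it.

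With the genotype means removed from both sides, 3.33% of features passed with a positive r and 1.10% with a negative r. The same 7 collagens passed in a permutation test over all pairings of libraries. They were joined by the integrin chains Itgb1 (r = 0.92, adjusted p = 0.0442), Itga9 (0.93, 0.0358) and Itgae (0.93, 0.0366). After that step libraries of different genotypes are not freely interchangeable, so these p-values are not exact and may be too small. Without it the adjusted p of these chains was 0.0672, 0.0688 and 0.111 (exact permutation test). Itgb1 varied little: it had 8819, 8694, 9260 and 10426 in Slm2KO libraries, against 9750, 8566, 9786 and 9507 in WT libraries, a 1.22-fold range. Itga9, an alpha chain that pairs with it, ranged over 1.40-fold, and Itgae, a chain of resident T cells, was low, with a mean of 53.2. Leaving out 1 library left 4 collagens past the threshold without WT 2, 2 without Slm2KO 3 and 0 without any other library; with 7 libraries the smallest possible p is 0.000198.

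Lama4 and 7 other laminin and collagen chains had r of 0.89 to 0.99 with the markers of vessels, but none passed adjustment. The 23 endothelial and mural markers had a summed value of 48887 to 60803 in Slm2KO libraries and 52570 to 67631 in WT libraries, lowest in Slm2KO 4 and highest in WT 1, and none was at 0. Lama4, the laminin alpha chain of endothelial basement membranes, had 1035, 890, 776 and 692 in Slm2KO libraries, against 1376, 1043, 804 and 938 in WT libraries. Its r with the list was 0.99, the highest of all 25667 features (exact permutation p = 0.000124, adjusted p = 0.152; rho 0.98, exact permutation p = 0.000397, adjusted p = 0.14; r of 0.95 without Slm2KO 4 and WT 1). Lamc3 (r = 0.92), Col4a1 and Col4a2 (0.91 each), Col22a1 (0.91), Col12a1 (0.90), Lamb2 (0.89) and Col5a1 (0.89) came next, with exact permutation p of 0.000967 to 0.00303 and adjusted p of 0.199 to 0.240. Their rho was 0.76 to 0.95 (exact permutation p of 0.00114 to 0.0368, adjusted p of 0.16 to 0.36). Without the same libraries their r ran from 0.73 for Col5a1 to 0.97 for Col22a1. None of the 82 genes passed adjustment for this list, nor did any feature, whereas an unadjusted exact permutation p under 0.05 with a positive r was found for 14 of 44 collagens, 6 of 10 laminins and 3 of 28 integrins, beside 6.19% of all features. Itgb3bp alone was negative at that level (r = -0.91), beside 5.37% of all.

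The type I and III chains had r of 0.87 to 0.91 with the markers of meningeal fibroblasts, and no gene passed adjustment for this list. These 18 markers had a summed value of 13705 to 28530 in Slm2KO libraries and 20995 to 42284 in WT libraries, with WT 1 the highest and Slm2KO 2 the lowest, and none was at 0. Col3a1, the chain of reticular fibrils, had 348, 223, 260 and 268 in Slm2KO libraries, against 834, 325, 322 and 225 in WT libraries. Col1a1 had 1056, 693, 810 and 697 in Slm2KO libraries, against 1785, 992, 953 and 800 in WT libraries, and its partner Col1a2 had 1814, 943, 1441 and 1528 in Slm2KO libraries, against 3355, 1630, 2212 and 1204 in WT libraries. All 3 genes were highest in WT 1, and the other WT libraries overlapped the Slm2KO libraries. Pearson r with the list was 0.95 for Col9a2, 0.91 for Col1a1 and Col1a2, 0.88 for Col13a1 and 0.87 for Col3a1 (exact permutation p of 9.92e-05 to 0.00813, adjusted p of 0.218 to 0.507). Their rho was 0.74 to 0.95 (exact permutation p of 0.00114 to 0.0458). Without Slm2KO 2 and WT 1, r was 0.88 for Col1a1, 0.69 for Col3a1, 0.64 for Col9a2, 0.52 for Col13a1 and 0.49 for Col1a2. The relations of Col13a1 and Col1a2 thus rest on those libraries. Col5a1 (0.50) and Col11a1 (0.20), also fibrillar, had a lower r with this list than with the vessel list (0.89 and 0.82). The type I and III chains were not tied to this list alone. With the vessel list r was 0.83 for Col1a1, 0.75 for Col3a1 and 0.51 for Col1a2. Lamb2 and Lamc3 in turn had r of 0.81 and 0.80 with this list. Both lists were highest in WT 1. Of all members, 9 of 44 collagens, 4 of 10 laminins and 3 of 28 integrins had an unadjusted exact permutation p under 0.05, all positive, beside 3.86% of all features positive and 3.74% negative.

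**Figure D3:**
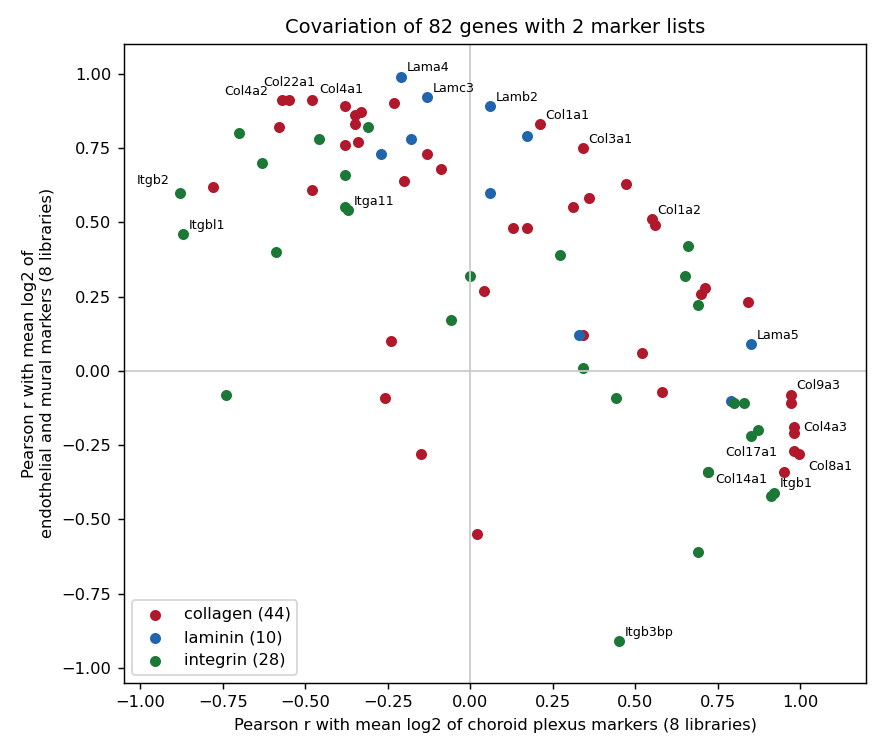
Pearson r of each of the 82 genes with the choroid plexus marker list (horizontal) and with the endothelial and mural marker list (vertical) over the 8 libraries, coloured by family. The 7 choroid-linked collagens lie at the right edge with r of 0.95 to 0.997, and Lama4, Lamc3, Col4a1 and Col4a2 lie at the top with r of 0.91 to 0.99.

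Many collagen chains that assemble in the same molecule covaried, and fewer laminin and integrin partners did. Of 32 such pairs computed, with adjustment over all 32, 11 passed by the exact permutation test of Pearson r: 7 of 11 collagen pairs (median r 0.89), 1 of 9 laminin pairs (0.44) and 3 of 12 integrin pairs (0.45); the difference between the families was not tested. Col8a1 and Col8a2 had r = 0.99 (adjusted p = 0.000794; rho 1.000, adjusted p = 0.00159, exact permutation tests), and Col4a3 and Col4a4 had r = 0.99 (adjusted p = 0.00198; rho 0.98, adjusted p = 0.00635, exact permutation tests). Col4a1 and Col4a2, the common type IV pair, had r = 0.97 (adjusted p = 0.00265; rho 0.95, adjusted p = 0.0122, exact permutation tests). Ranked by r to the first gene among 25666 features, Col4a4 was at 4 for Col4a3, Col4a2 at 5 for Col4a1 and Col8a2 at 25 for Col8a1. Other partners that passed ranked lower, with Col1a2 at 147 for Col1a1, Col5a2 at 212 for Col5a1, Lamb1 at 924 for Lama5 and Itgb2 at 1286 for Itgam. Many features that are not partners thus had a higher r to these chains. Col4a5 and Col4a6 (r = 0.92), Col1a1 and Col1a2, Col5a1 and Col5a2, and Col6a1 and Col6a2 (0.89 each) also passed. Without the 2 libraries farthest from the median of the first gene, r stayed at 0.94 to 0.99 for the first 3 pairs and at 0.90 for Col5a1 and Col5a2, and was 0.73, 0.60 and 0.72 for the type IV pair on the X chromosome, type I and type VI. By Spearman rho, Col8a1 and Col8a2, Col4a3 and Col4a4, Col4a1 and Col4a2, and Col5a1 and Col5a2 alone passed adjustment.

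Several other partners did not pass. Col6a3, the large chain that joins Col6a1 and Col6a2, had 980, 270, 816 and 1785 in Slm2KO libraries, against 1311, 1363, 1899 and 530 in WT libraries, a 7.03-fold range. Col6a1 had 6359, 5081, 6084 and 3884 in Slm2KO libraries, against 5850, 6397, 4627 and 4111 in WT libraries, and r between them was -0.00 (exact permutation p = 0.992). Col9a2 and Col9a3 had r = 0.56 (exact permutation p = 0.143) over the libraries as they stand. Without Slm2KO 2 and WT 1, the libraries farthest from the median of Col9a2, their r was -0.18. With the choroid plexus list held constant, the partial r was 0.92 for this pair, 0.60 for Col8a1 and Col8a2, 0.86 for Col4a3 and Col4a4 and 0.97 for Col4a1 and Col4a2, given as a description with no test. Among laminins, Lama5 and Lamb1 alone passed (r = 0.83, adjusted p = 0.0277; rho 0.79, adjusted p = 0.0993, exact permutation tests), with a partial r of 0.50, while Lama4 and Lamb1 had r = -0.11 (exact permutation p = 0.799). Among integrins, the alpha V chain Itgav passed with Itgb5 (r = 0.88, adjusted p = 0.0192) and Itgb8 (r = 0.87, adjusted p = 0.0300), and Itgam with Itgb2 (r = 0.80, adjusted p = 0.0491), all by the exact permutation test. Of 7 pairs of an alpha chain with Itgb1, 0 passed; r ran from -0.57 for Itga8 to 0.70 for Itgav, whose unadjusted exact permutation p was 0.0562.

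The type IV genes that lie back to back in the genome all covaried. Of 13 pairs of members within 100 kilobases of each other, the 3 that start back to back, Col4a1 and Col4a2 on chromosome 8 (2 bases between the features), Col4a4 and Col4a3 on chromosome 1 (70 bases) and Col4a6 and Col4a5 on the X chromosome (1340 bases), all passed adjustment over the 13 pairs (adjusted p of 0.00161, 0.00161 and 0.0132, exact permutation test). Col6a2 and Col6a1, on the same strand of chromosome 10, passed as well (adjusted p = 0.0166). The other 9 did not, among them Itgam and Itgax (r = -0.13) and Col9a1 and Col19a1 (r = -0.70, exact permutation p = 0.0543), with 1383 and 4944 bases between them. The 4 pairs that passed are also partner chains.

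Between the genotypes, none of the 82 genes passed limma's test adjusted over all features, in which 0.00390% of features were higher and 0% lower in Slm2KO-labelled libraries. At an unadjusted limma p under 0.05, 5 of the 82 were found, 4 lower (Itga11, Itga7, Col20a1 and Itgax) and 1 higher (Col6a5), beside 3.52% of all features, 1.82% lower and 1.70% higher. edgeR's quasi-likelihood test on the recovered reads called 0 of the 82 and also had 5 with an unadjusted p under 0.05, while DESeq2 called Itga11 alone, lower, beside 0.0158% of 18946 features lower and 0.0369% higher. The groups did not overlap for Itga11 and Itgb3, 2 of 82 genes, both lower, beside 2.50% of all features (1.17% lower). The log2 difference, Slm2KO minus WT, was below 0 for 67 of 82 (81.7%), beside 53.9% of all features, with a median log2 difference of -0.09 beside -0.01. Without WT 1 it was below 0 for 48 of 82, with a median of -0.03. For 44 of the 82 genes the 95% confidence interval excluded a difference of 1.5-fold in either direction, and for 70 it excluded 2-fold, beside 16867 and 21859 of all 25667 features.

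**Figure D4:**
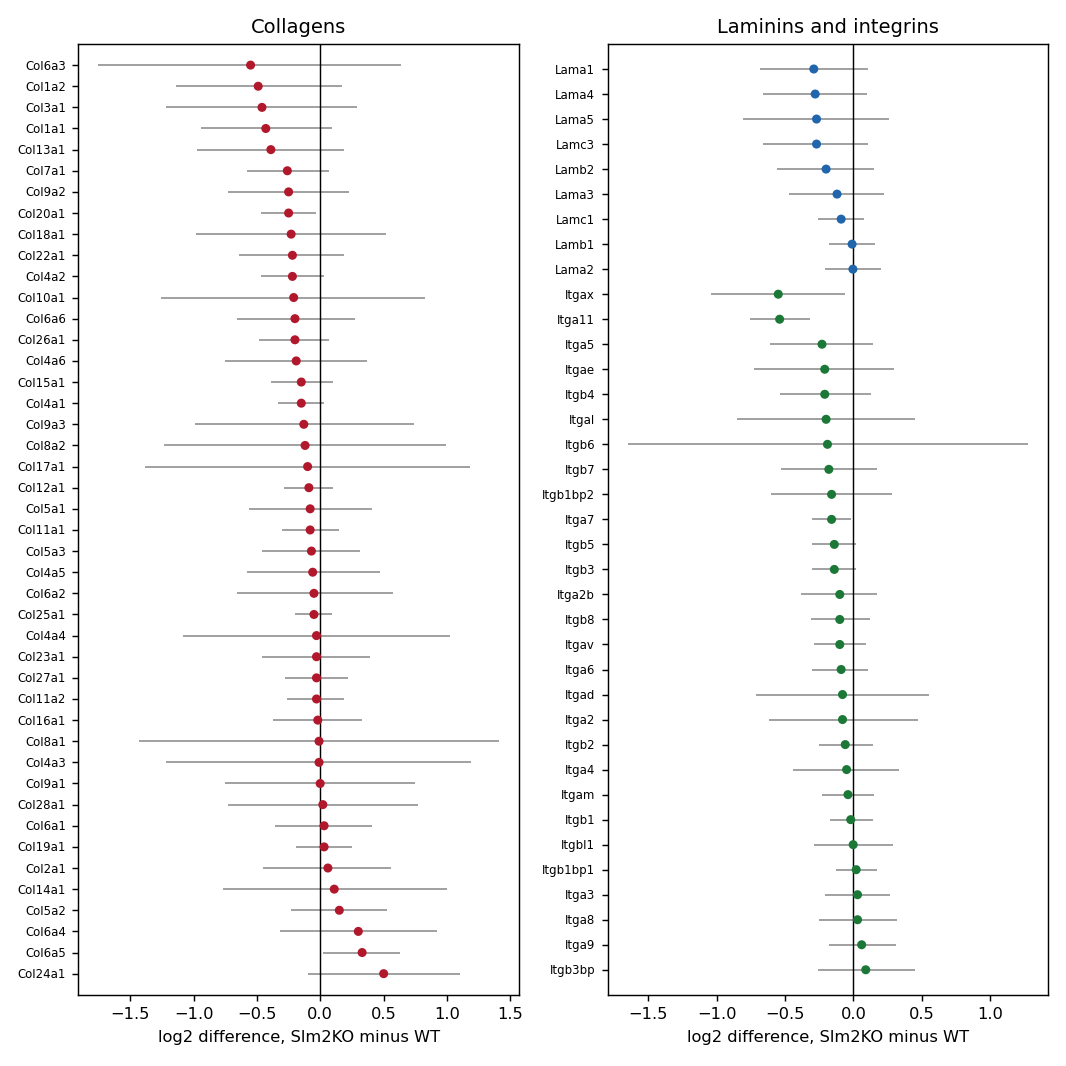
Log2 difference between Slm2KO-labelled and WT-labelled libraries (4 each) for the tested genes, with 1 gene not shown and the 95% confidence interval of the limma fit as a line. Collagens are on the left, laminins (blue) and integrins (green) on the right; Itga11 lies at -0.54 with an interval of -0.76 to -0.32, and the choroid-linked collagens near 0 have wide intervals.

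Itga11, the integrin alpha chain that binds fibrillar collagen together with Itgb1, had the smallest p of the set. The rule for naming genes lists Itga11 itself, and earlier results of these data were known when the genes were chosen. The normalised read count of Itga11 was 447, 493, 439 and 395 in Slm2KO 1 to 4, against 604, 703, 587 and 686 in WT 1 to 4 (chromosome 9, 62677855 to 62783979, plus strand). All Slm2KO-labelled libraries lay below all WT-labelled ones, with means of 444 ± 40.1 and 645 ± 58.1 (SD, n = 4 each). The log2 difference was -0.54 (SE 0.0992), 0.689-fold with a 95% interval of 0.591 to 0.802, with a limma adjusted p of 1.00 and an exact permutation p of 0.0286, the smallest that 4 against 4 libraries allow. DESeq2 on the recovered reads called it lower (adjusted p = 0.00294) and edgeR did not (adjusted p = 1.00). Over all the alternatives its adjusted p ran from 0.00294 to 1.00, and DESeq2 alone passed. The difference was -0.47 in the lower number series and -0.61 in the higher, and -0.59 to -0.48 when each library was left out in turn; as the groups do not overlap, its direction in any subset is fixed. Without the lowest and highest Ttr libraries it was -0.44.

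Within each genotype, Itga11 was lower where choroid plexus RNA was higher. The WT libraries from the lowest to the highest marker sum, WT 2, WT 4, WT 1 and WT 3, ran from the highest to the lowest Itga11, and so did the Slm2KO libraries apart from Slm2KO 1 and Slm2KO 3, whose values lay close together. This order was not particular to choroid plexus markers. The summed hippocampal neuron markers were 461827, 518568, 440817 and 511947 in WT 1 to 4, the order of Itga11 itself. In Slm2KO 1 to 4 they were 488824, 531241, 490006 and 403277, again in its order apart from Slm2KO 1 and Slm2KO 3. A correlation of Itga11 with the neuron list was not tested. With genotype means removed, the r of Itga11 with the choroid plexus list was -0.94 (permutation p = 0.000818, adjusted p = 0.0303). Its rho was -0.95 (permutation p = 0.00114, adjusted p = 0.0403), and r was -0.95 without Slm2KO 4 and WT 2. Of the 82 genes, it alone passed with a negative r. As for the integrin chains above, these p-values are not exact and may be too small. Over all 8 libraries without that step r was -0.37 (exact permutation p = 0.365, adjusted p = 0.651). With log2 Ttr as a covariate the genotype difference was -0.53 and its limma adjusted p 0.172. Its r with Itgb1, its partner chain, was -0.86 with genotype means removed (permutation p = 0.00692, not exact either) and -0.24 without (exact permutation p = 0.551). The features with a symbol most like it, of 17594, were Dimt1 (r = 0.992), Ppp1r9a (0.990), Gls2 (0.989), Atp2a2 (0.989) and Sort1 (0.988), by Pearson r over the 8 libraries with genotype means removed; over the libraries as they stand r was -0.02, 0.74, 0.43, 0.53 and 0.55.

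Of the 28 integrins, 23 were below 0, with a median of -0.10, and 0 passed in limma. Without WT 1, 21 were below 0 and the median was -0.08. Itgb3, the beta chain of the platelet and alpha V receptors, had 502, 507, 498 and 499 in Slm2KO libraries, against 540, 552, 574 and 541 in WT libraries. Its groups did not overlap either, but they lay close together, with a log2 difference of -0.14 (SE 0.0713; limma adjusted p = 1.00; exact permutation p = 0.0286). Itga7 had 4497, 4545, 4428 and 4626 in Slm2KO libraries, against 4803, 5366, 5435 and 4626 in WT libraries, where WT 4 met the highest Slm2KO library; the log2 difference was -0.16 (SE 0.0624). Itgax, a chain of dendritic cells and activated microglia, was low throughout, with 61.0, 33.7, 45.6 and 58.2 in Slm2KO libraries, against 78.1, 71.4, 59.7 and 77.5 in WT libraries, and a log2 difference of -0.55 (SE 0.221). Itgb1 and Itgam, at -0.02 and -0.04, had intervals that excluded a 1.5-fold difference (0.886- to 1.10-fold and 0.854- to 1.11-fold). Itgb5 was at -0.14 (0.810- to 1.02-fold).

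Among the laminins, 9 of 10 were below 0, with a median of -0.16 that became -0.05 without WT 1, and 0 passed in limma or had an unadjusted p under 0.05. Lama4 was at -0.28 (SE 0.170; means of 848 ± 149 in Slm2KO and 1040 ± 244 in WT libraries, SD, n = 4 each), Lama1 at -0.29, Lamc3 at -0.27 and Lamb2 at -0.20. Without WT 1 these were -0.14, -0.15, -0.13 and -0.05. Lamb1 and Lamc1, chains common to many laminins, were at -0.01 and -0.09, with intervals of 0.882- to 1.12-fold and 0.835- to 1.06-fold.

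Of the 44 collagens, 35 were below 0, with a median of -0.08, and 0 passed in limma; without WT 1, 20 were below 0 and the median was 0.04. Col20a1, a fibril-associated collagen, had 1062, 1118, 969 and 997 in Slm2KO libraries, against 1315, 1424, 1149 and 1061 in WT libraries, with WT 4 inside the Slm2KO range (log2 difference -0.25, SE 0.0989; limma adjusted p = 1.00; exact permutation p = 0.0857). Col6a5, an alternative chain of type VI, had 522, 810, 612 and 654 in Slm2KO libraries, against 532, 538, 552 and 433 in WT libraries, with Slm2KO 1 inside the WT range (log2 difference 0.33, SE 0.137; limma adjusted p = 1.00; exact permutation p = 0.114). Col24a1 had the largest positive difference of the tested genes, at 0.50 (SE 0.270; unadjusted limma p = 0.0935; exact permutation p = 0.143), and 0.72 without WT 1. It was low, with 91.5, 128, 70.5 and 76.5 in Slm2KO libraries, against 100, 52.4, 61.8 and 47.9 in WT libraries. The vascular pair Col4a2 and Col4a1 had log2 differences of -0.22 and -0.15, with means of 10443 ± 1351 and 7585 ± 789 in Slm2KO libraries, against 12191 ± 1620 and 8399 ± 648 in WT libraries (SD, n = 4 each). The type I and III chains were at -0.43 (Col1a1), -0.49 (Col1a2) and -0.46 (Col3a1). Without WT 1 these became -0.18, -0.23 and -0.08. Among the choroid-linked chains the spread left wide intervals, 0.371- to 2.65-fold for Col8a1 and 0.384- to 2.27-fold for Col17a1, which hold a 2-fold difference in either direction. The intervals of Col9a3 (0.503- to 1.67-fold) and Col14a1 (0.585- to 1.99-fold) excluded 2-fold.

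**Figure D5:**
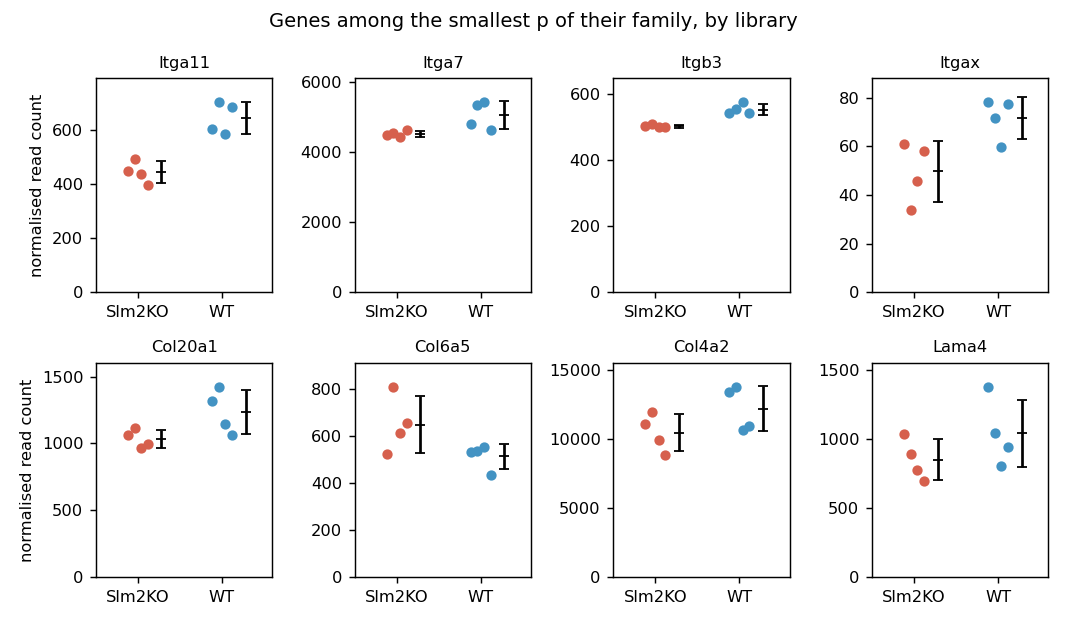
Normalised read count per library (points), with the mean and SD to the right of each group (n = 4), for 8 genes among the smallest p of their families, Slm2KO left of WT, axes from 0. The points of Itga11 and Itgb3 do not overlap between the groups; those of the other 6 genes do.

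Genes that work with these chains were mostly slightly below 0 as well, and none passed. Of 22 other basement membrane and matrix genes 20 were below 0 (median -0.12) and of 26 genes of collagen assembly and crosslinking 21 (median -0.07). For the 11 other collagen and laminin receptors the count was 10 (median -0.07), and for the 22 cytoplasmic partners of integrins 19 (median -0.07). Of these lists, 3, 2, 0 and 1 members had an unadjusted limma p under 0.05, all lower. Without WT 1 the first 2 lists had 16 of 22 (median -0.05) and 16 of 26 (median -0.02) below 0. The last 2 changed little, with 11 of 11 (median -0.08) and 18 of 22 (median -0.06). Nid1 (nidogen, which links laminin to type IV collagen) was at -0.40 (means of 801 ± 116 in Slm2KO and 1066 ± 234 in WT libraries, SD, n = 4 each) and Npnt (nephronectin, an integrin ligand) at -0.22. P4ha3 and Plod1, a prolyl and a lysyl hydroxylase of collagen, were at -0.33 and -0.14, Mag and Mrc2 at -0.14 and -0.42, and the adhesion proteins Bcar1 and Zyx at -0.16 and -0.17.

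Most cell type markers lay on the same side of 0 as most of these genes. Endothelial and mural markers were below 0 for 22 of 23 (median -0.20, and -0.10 without WT 1), with Eng at -0.34 and Pecam1 at -0.30. Meningeal fibroblast markers were below 0 for 17 of 18 (median -0.42, and -0.18 without WT 1), with Slc22a6 at -0.78 and Crabp2 at -0.87. Choroid plexus markers were split, 10 of 18 below 0 with a median of -0.04, which was 0.27 without WT 1 and -0.96 without the lowest and highest Ttr libraries. Of the 13 microglia markers 10 were below 0, of 10 astrocyte markers 9, of 12 oligodendrocyte markers 10 and of 12 neuron markers 10, with medians of -0.08 to -0.04. Without WT 1 these counts were 10, 9, 12 and 11, with medians of -0.16 to -0.06. None of these markers passed in limma, 6 of them in the glial and neuronal lists and Eng had an unadjusted p under 0.05, and their part in the differences of collagens, laminins and integrins was not tested.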

How the data were processed

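Hippocampal RNA of 8 samples was sequenced after preparation with the Illumina TruSeq RNA kit from Trizol extracts, per the labels' protocols. The deposited table holds 1 signal value per feature and library, a normalised read count that the authors scaled with DESeq, per the submitters' processing notes, without division by gene length. FastQC, Picard and SAMtools are named there too, with no version, and the build hg19, whereas the file header states mm10 and the symbols are those of mouse; coordinates are mm10. No aligner or counting program is given in the sources used here. Within each library 100% of values were whole multiples of 1 step within 0.001 of a read, so reads were recovered (size factors of 0.928 to 1.11; the step of WT 1, at 0.999, is too close to 1 for this to be checked by the step alone).

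Features with a mean of at least 10 were compared with limma 3.58.1 (R 4.3.3) on log2(value + 1) with a trended prior, and p-values were adjusted by Benjamini-Hochberg over all 25667 with a threshold of 0.05. Differences are on that log2 scale, which understates changes of low genes. Recovered reads were tested with edgeR 4.0.16 and DESeq2 1.42.0 as alternatives. Tests of single genes are two-sided exact permutation tests over 70 assignments, and correlations have two-sided exact tests over 40320 pairings of libraries (Python 3.11.15, pandas 2.3.3, scipy 1.17.1, matplotlib 3.10.9). With genotype means removed the same pairings were used, and there the test is approximate, not exact. Exon lengths are from GENCODE vM21. The procedures were tested on simulated data. Members and lists were chosen with earlier results of these data known, and the correlations with marker lists and the covariate of Y-linked reads were added after seeing the data.

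Genes were named by a rule: any gene past the threshold, in each family the 5 smallest p, the 5 highest means per kilobase and the 3 largest SDs, Itga11, partner pairs past the threshold, and 2 genes from each list. Others were named after their values were seen. The result of 1 gene that the rule names is not reported here. Alternatives were pseudocounts of 0.5 and 10, no filter or a mean of at least 50, TMM factors, no trend, a replicate block, number series or Ttr as a covariate, and libraries left out.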

Additional observations from a re-analysis of the deposited data

Results flagged for a closer look

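Of 86 groups of 4 libraries tested for a library far from the others (43 named genes, both genotypes), 2 were picked out, where chance alone picks about 1 in 20. Lamb2, the laminin beta chain of vascular basement membranes, was highest in Slm2KO 1 at 4853, with the nearest Slm2KO library at 3797. Col6a5 was lowest in WT 4 at 433, with the nearest WT library at 532.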

How the results depend on the processing

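The log2 differences of 15 named genes kept their direction in all 21 alternatives each. These genes were chosen for the smallest p of their families in the same libraries, so a kept direction was likely beforehand. For Itga11 and Itgb3, whose groups do not overlap, leaving out libraries could not change it. The count of all features past the threshold, 1 in limma, was 2 with a pseudocount of 10 or with Ttr as a covariate, 0 without the trend, 10 in DESeq2 and 0 to 2 with libraries left out. The members called were 0 in every alternative but DESeq2, which called 1, Itga11 (-0.540). The median difference of the members ran from -0.16 without WT 4 to -0.03 without WT 1. Members correlated with choroid plexus markers were 0 to 4 with libraries left out, against 7 in all 8, and partner pairs past the threshold 3 (without Slm2KO 2) to 11, against 11; fewer libraries raise the smallest possible p.

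Same-numbered samples had correlations of deviations of 0.12, 0.32, -0.07 and -0.12, and differently numbered ones ran from -0.32 to 0.32. These values do not settle whether the numbers pair samples. With the replicate number as a block, 1 feature passed, 0 members were called and 15 members had an unadjusted limma p under 0.05, against 5 without it. That count was 9 with the number series or Ttr as a covariate, 14 without the lowest and highest Ttr libraries and 2 to 9 with libraries left out.

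With 4 libraries a group, the intervals of Col8a1 and Col17a1 hold differences of 2-fold in both directions, and the exact permutation test cannot go below p = 0.0286.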

Other observations

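Low members, which the comparisons do not turn on, also differed between libraries. Itgb6, the epithelial partner of the alpha V chain, had normalised read counts of 18.5, 27.4, 15.5 and 66.8 in Slm2KO libraries, against 54.1, 7.23, 63.8 and 34.5 in WT libraries, a 9.24-fold range. It was high in Slm2KO 4, WT 1 and WT 3, as the choroid plexus markers were, but did not pass (r = 0.85, exact permutation p = 0.00796, adjusted p = 0.118). Itgal, the alpha chain of the lymphocyte receptor LFA, had 49.9, 135, 65.3 and 57.1 in Slm2KO libraries, against 89.1, 95.8, 70.9 and 72.7 in WT libraries, with Slm2KO 2 above all others. Col10a1 had 36.4 in WT 3 and 6.01 to 14.7 in the other 7 libraries. Itgb2l, below the mean required for testing, had 11.1, 2.10, 8.29 and 25.9 in Slm2KO libraries, against 6.01, 5.42, 8.10 and 11.5 in WT libraries. The feature of Col10a1 overlaps Nt5dc1, and that of Itgb2l overlaps Pcp4 and Igsf5. Reads of the overlapping genes cannot be told apart from these few.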
